A study of Mus musculus with 4 samples.

Results

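The 28 genes described here encode enzymes of sterol synthesis from acetyl-CoA onwards, the sterol regulatory element-binding protein (SREBP) machinery that controls them, and the liver X receptors (LXRs) with the transporters for cholesterol efflux. They were taken by gene symbol from the count tables of CD24+ emergency progenitors (EPs), and all 28 were found among the 40213 symbols listed. Of the 28, 18 are enzymes, 6 belong to SREBP control and 4 to the LXR and efflux group, and 27 passed the filter on low counts. *Nr1h3* was the gene that did not pass.

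Cells make cholesterol from acetyl-CoA through mevalonate, isoprenoid units, squalene and a long series of changes to the sterol ring. When sterols in the endoplasmic reticulum run low, SCAP carries the SREBPs to the Golgi apparatus, where they are cut and released to turn on the genes of the pathway. INSIG proteins hold SCAP back when sterols are plentiful, and oxysterols at the same time activate the LXRs, which raise efflux. Dividing cells need sterols for new membrane, and in dendritic cells and macrophages LXRs also act on inflammatory genes.

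EPs are CD11c+CD117+ cells that accumulate in the spleen under Flt3L and include precursors of type 1 conventional dendritic cells (cDC1s). The WT group held 2 libraries labelled WT. The other group held 2 libraries labelled cKO, from TopBP1 fl/fl mice that also carried CD11c-cre. The paper names TopBP1 fl/fl littermates as the WT controls of its tumor experiment. Whether the WT mice of these libraries were such littermates is not stated in the sources used here. Both groups received Flt3L-Ig, 10 μg i.p. on days 0 and 3, with the CD24+ EPs sorted out of spleens at day 9. Mice in the study were 7 to 10 weeks old, the Cre transgene came from a B6.Cg line, and neither the strain of the floxed line nor the number of mice behind each library is given in the sources used here. Cre was driven by the CD11c promoter, which limits deletion to cells that use or have used that promoter, and CD11c was itself part of the sort gate.

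Libraries held from 14561583 to 15193831 counts. *Topbp1* was counted at 1102 and 1143 in the WT libraries. It was at 773 in the library labelled cKO replicate 1 and at 1279 in the library labelled cKO replicate 2. The gene was thus not below WT in the latter, and the group is named here by label only. These counts are sums over transcripts, and the floxed exons were not counted apart, so deletion itself was not tested. The 8 genes of the gate, of EPs and of cDC1s (*Itgax*, *Kit*, *Cd24a*, *Flt3*, *Irf8*, *Zbtb46*, *Xcr1*, *Clec9a*) were present in every library. The lowest of them was *Zbtb46* with 3005 to 3230 counts. Of the 8, 1 was higher and 7 lower in the libraries labelled cKO, with no FDR below 0.05. Both libraries labelled cKO lay below both WT libraries for 6, against 20.8% of all genes, and above for 1, against 22.8%. They summed to 6705 and 6759 CPM (counts scaled to library size with TMM factors) in WT. In the libraries labelled cKO the sums were 6396 CPM for replicate 1 and 5709 CPM for replicate 2. The list of 20 cell cycle genes summed to 689 and 644 CPM in WT. It summed to 837 CPM in the library labelled cKO replicate 1 and to 2324 CPM in that labelled cKO replicate 2. The 13 neutrophil markers summed to 808 and 760 CPM in WT and to 2223 and 2243 CPM in the libraries labelled cKO, where 13 of 13 were higher and 5 rose at FDR < 0.05 (*S100a8*, *S100a9*, *Ltf*, *Lcn2* and *Ngp*). Among lists of other cells, 6 of 7 B cell, 3 of 3 T cell, 3 of 3 erythroid, 3 of 7 pDC and 2 of 8 macrophage markers tested were higher, with no FDR below 0.05. Sums in WT and in the libraries labelled cKO were 32.6 to 37.7 and 40.7 to 52.4 CPM for B cells, 4.10 to 4.66 and 5.56 to 13.9 CPM for T cells, 209 to 217 and 182 to 183 CPM for pDCs and 192 to 207 and 153 to 182 CPM for macrophages. For erythroid markers the sums were 9.86 to 10.6 CPM in WT and 14.2 to 14.4 CPM in the libraries labelled cKO. What part any of these lists had in the values below was not tested.

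Promoter sequence is shown for 4 genes because SREBPs act by binding near the start of genes of this kind: *Hmgcs1*, which opens the committed pathway, *Idi1* and *Hsd17b7*, whose values differed most among the enzymes with a reference window, and *Insig1*, the feedback gene. The RefSeq table (GRCm38.p6) held a window for 23 of the 28 genes, and the 250 bases before the start are given 5′ to 3′. Capitals mark a sterol regulatory element (TCACNCCAC), an E-box (CACGTG) or a CCAAT box (CCAAT), each on either strand, so that a CCAAT box on the opposite strand reads ATTGG.
Hmgcs1 (chr13:119690101-119690350, plus strand): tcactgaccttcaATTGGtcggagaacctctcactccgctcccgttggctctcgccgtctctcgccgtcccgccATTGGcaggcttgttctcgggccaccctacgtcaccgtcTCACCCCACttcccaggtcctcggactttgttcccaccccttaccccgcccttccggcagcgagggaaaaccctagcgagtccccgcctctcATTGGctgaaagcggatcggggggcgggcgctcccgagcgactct
Idi1 (chr13:8885356-8885605, plus strand): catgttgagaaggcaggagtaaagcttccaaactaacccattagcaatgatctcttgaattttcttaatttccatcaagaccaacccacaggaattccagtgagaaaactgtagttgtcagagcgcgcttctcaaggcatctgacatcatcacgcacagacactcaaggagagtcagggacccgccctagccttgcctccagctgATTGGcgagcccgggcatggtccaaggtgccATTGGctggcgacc
Hsd17b7 (chr1:169969206-169969455, minus strand): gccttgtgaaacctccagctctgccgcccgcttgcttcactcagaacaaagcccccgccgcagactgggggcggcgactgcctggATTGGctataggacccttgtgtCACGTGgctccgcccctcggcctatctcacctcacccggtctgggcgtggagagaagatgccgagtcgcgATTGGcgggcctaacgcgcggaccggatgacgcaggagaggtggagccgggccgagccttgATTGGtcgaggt
Insig1 (chr5:28071162-28071411, plus strand): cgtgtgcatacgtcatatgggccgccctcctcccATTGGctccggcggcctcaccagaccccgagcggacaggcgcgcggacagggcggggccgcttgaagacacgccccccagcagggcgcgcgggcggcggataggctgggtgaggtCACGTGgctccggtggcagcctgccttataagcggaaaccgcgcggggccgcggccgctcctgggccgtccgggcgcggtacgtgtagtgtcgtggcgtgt
The CCAAT box, which binds the SREBP partner NF-Y, was found 3 times in the windows of *Hmgcs1* and *Hsd17b7*, 2 times in that of *Idi1* and once in that of *Insig1*. Over the 23 genes with a window it was present in 18 (78.3%), against 37.5% of the 27025 genes in the table and 33.8% of the 32851 windows. The E-box was present in 6 of the 23 genes (26.1%), against 6.86% of all genes and 6.02% of windows, and overlapped no other capitalised motif in the sequences shown. A GC box (GGGCGG), not capitalised, was present in 20 of the 23 genes (87.0%), against 35.4% of all genes and 32.7% of windows. The element TCACNCCAC was found in *Hmgcs1* alone among the 23 genes (4.35%), and in 1.22% of all genes and 1.05% of windows. The LXR element DR4, a direct repeat of AGGTCA with 4 bases between its copies, was in no window of the 23 genes and in 0.0152% of all windows. The shares of all genes cover every gene in the promoter table, expressed in these cells or not. Expressed genes alone were not compared, so the differences in share cannot be assigned to genes of this pathway. These are matches of letters, and no binding was measured here.

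All but *Nr1h3* of the 28 genes were above 1 CPM in every library. Levels between genes were compared as CPM per kilobase of transcript, with lengths from GENCODE M21 transcripts that carry the same RefSeq accession. *Srebf2*, the SREBP that serves the cholesterol genes, stood highest of the 28 at 72.5 ± 1.55 CPM per kb (SD, n = 2). *Fdps*, which makes farnesyl diphosphate, followed at 70.4 ± 3.06, and these neighbours did not differ beyond their spread. *Nr1h2* (LXRβ) at 55.9 ± 4.43, *Hmgcs1* at 50.2 ± 4.07 and *Pmvk*, phosphomevalonate kinase, at 43.7 ± 0.375 CPM per kb came next, followed after a gap by *Abcg1* at 22.2 ± 0.931. At the low end were *Nr1h3* (LXRα) at 0.189 ± 0.0449 and *Abca1* at 0.147 ± 0.0257 CPM per kb, and the SD of *Nr1h3* took in the mean of *Abca1*. The lengths of *Fdft1* and *Abca1* rest on transcripts that held 0% of their counts, that of *Dhcr7* on 0.463% and that of *Nr1h3* on 37.0%. The places of these genes are thus less certain.

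**Figure D1:**
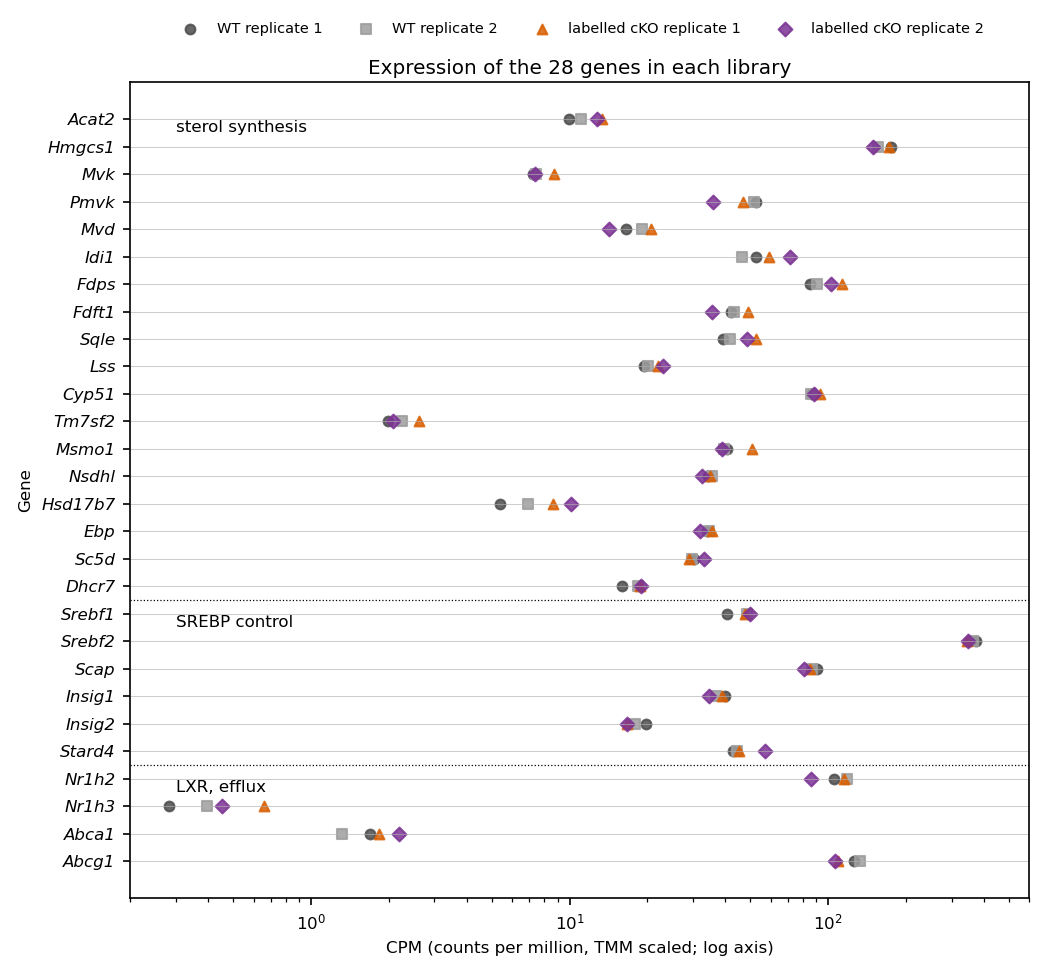
CPM of each of the 28 genes (log axis) in the 4 libraries, with the enzymes in pathway order above the first dotted line, SREBP control below it and the LXR and efflux genes at the bottom. *Srebf2* is the highest and *Nr1h3* and *Abca1* are among the lowest, and both libraries labelled cKO lie to the right of WT for *Idi1*, *Fdps*, *Sqle* and *Hsd17b7* and to the left for *Abcg1*.

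Between the libraries labelled cKO and WT, no gene of the 27 tested passed FDR < 0.05 in edgeR's quasi-likelihood test, against 0.105% of all 12393 genes, 0.0807% higher and 0.0242% lower in the libraries labelled cKO. Of the 27, 5 had an unadjusted P value below 0.05 in that test, as did 10.7% of all genes. Of these, 4 were higher in the libraries labelled cKO (14.8% of the 27, against 6.95% of all genes) and 1 was lower (3.70%, against 3.77%). The 4 higher ones, *Idi1*, *Fdps*, *Sqle* and *Hsd17b7*, are all enzymes, and the lower one was *Abcg1*. Both libraries labelled cKO lay above both WT libraries for 10 of the 27 (37.0%, against 22.8% of all genes) and below them for 5 (18.5%, against 20.8%). The log2 fold change was above 0 for 15 of the 27, against 51.2% of all genes. Its median was 0.07 over the 27, from −0.33 to 0.61, and 0.01 over all genes. The size of the log2 fold change was under 0.2 for 18 of the 27, and the 95% interval lay between −1 and 1 for 24 of them, all but *Hsd17b7*, *Tm7sf2* and *Abca1*. In bulk samples, a change in the share of a cell type and a change in RNA per cell cannot be told apart.

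The fold changes depended on which libraries were used, and the count of calls on the test. Without the library labelled cKO replicate 1, the group's only member was the one whose *Topbp1* count was not below WT. The log2 fold changes of *Idi1*, *Hsd17b7*, *Stard4*, *Pmvk* and *Nr1h2* were then 0.52, 0.72, 0.38, −0.53 and −0.38. These 5 were picked for their results in this fit and do not stand for the 27. The median over the 27 was −0.03. Without replicate 2, the 5 values were 0.25, 0.48, 0.04, −0.16 and 0.04, and the median over the 27 was 0.10. Without WT replicate 1 the median over the 27 was 0.04, and without WT replicate 2 it was 0.07. With all libraries, the DESeq2 Wald test gave an unadjusted P value below 0.05 to 1 of the 27 and to 991 of all 12393 genes. Under edgeR's likelihood ratio test these counts were 2 of the 27 and 1361 of all genes. In the fits with a library left out, the lone library is assumed to vary like the pair of the other group.

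**Figure D2:**
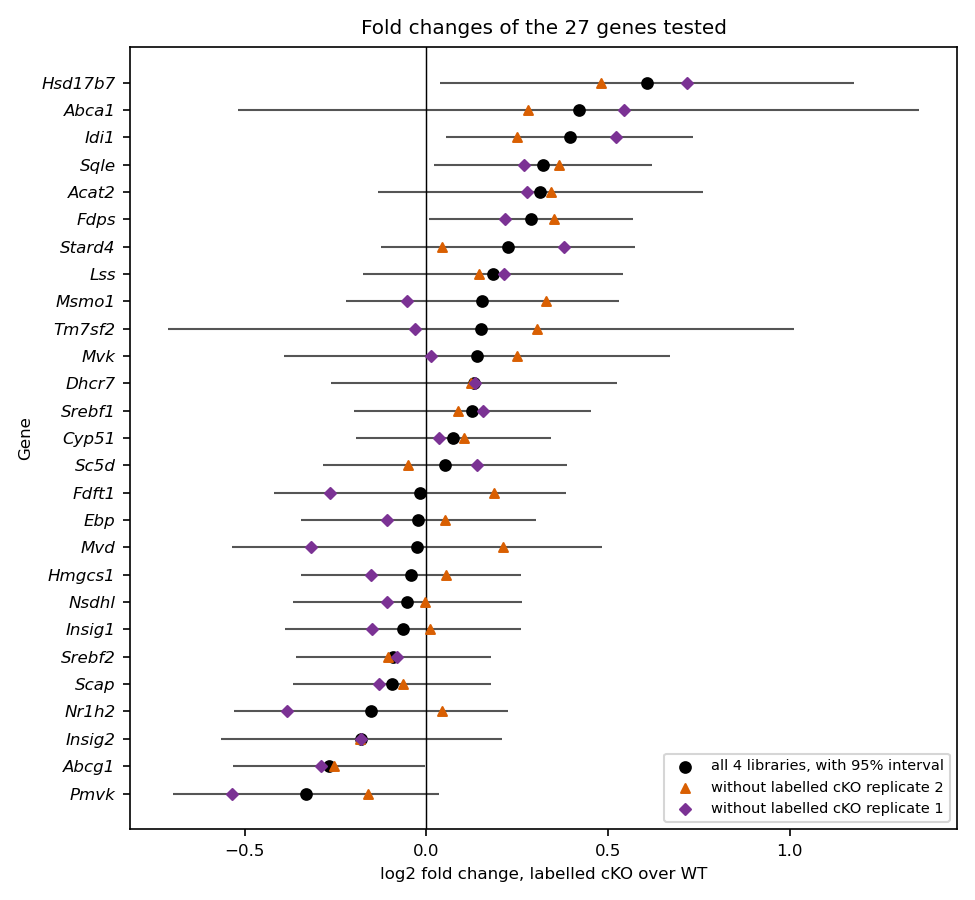
Log2 fold change of the 27 genes tested, libraries labelled cKO over WT, with the 95% interval from the quasi-likelihood fit (line), and the value with each library labelled cKO left out. The intervals of *Hsd17b7*, *Idi1*, *Sqle*, *Fdps* and *Abcg1* stop short of 0, and the triangles and diamonds lie on opposite sides of 0 for *Mvd*, *Fdft1*, *Msmo1* and *Nr1h2* among others.

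Of the 18 enzymes, 12 stood higher and 6 lower in the libraries labelled cKO, with a median log2 fold change of 0.14. Both libraries labelled cKO were above both WT libraries for 8 enzymes and below for 1, against 22.8% and 20.8% of all genes. Summed over the 18, the level was 749 and 740 CPM in WT, 830 CPM in the library labelled cKO replicate 1 and 755 CPM in that labelled cKO replicate 2. The cell cycle genes summed to 1.26 times the WT mean in replicate 1 and to 3.49 times in replicate 2, and their part in the enzyme levels was not tested. The median over the enzymes was 0.20 without replicate 2 of the label cKO and 0.02 without replicate 1.

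The 5 genes of the mevalonate steps summed to 261 and 245 CPM in WT and to 262 and 219 CPM in the libraries labelled cKO, so the groups overlapped. *Acat2*, the cytosolic thiolase that joins acetyl-CoA units, had 141 and 167 counts in WT and 204 and 197 in the libraries labelled cKO. For this gene the groups did not overlap (0.31 in log2, SE 0.19, FDR 0.604). *Hmgcs1*, HMG-CoA synthase, whose promoter is shown above, was counted at 2474 and 2356 in WT and at 2626 and 2299 in the libraries labelled cKO, so the groups overlapped (log2 fold change −0.04, SE 0.13, FDR 0.941). The mevalonate kinase gene *Mvk* (0.14) and the decarboxylase gene *Mvd* (−0.03) had overlapping groups as well. *Pmvk* was the only enzyme below WT in both libraries, with 743 and 784 counts in WT against 715 and 557. The difference was −0.33 in log2 (SE 0.16, FDR 0.508), and came to −0.16 without replicate 2 of the label cKO and to −0.53 without replicate 1. All 5 of these genes were lower in the library labelled cKO replicate 2 than in replicate 1.

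Next come the isoprenoid steps, both of which stood above WT in each library labelled cKO. *Idi1*, which isomerises isopentenyl diphosphate, had 744 and 700 counts in WT and 899 and 1097 in the libraries labelled cKO. Both values were above both WT values (log2 fold change 0.39, SE 0.15, unadjusted P = 0.0283, FDR 0.401), and it was 0.25 without replicate 2 of the label cKO. *Fdps* had 1208 and 1372 counts in WT and 1718 and 1583 in the libraries labelled cKO, again with no overlap (log2 fold change 0.29, SE 0.12, unadjusted P = 0.0451, FDR 0.457). Together the pair summed to 138 and 137 CPM in WT and to 172 and 173 CPM in the libraries labelled cKO.

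At the squalene steps, *Fdft1*, squalene synthase, was level with WT on average (log2 fold change −0.02, SE 0.17), being higher in the library labelled cKO replicate 1 (744 counts against 596 and 654 in WT) and lower in replicate 2 (549). *Sqle*, the squalene epoxidase and an oxygen-dependent control point of the pathway, had 554 and 632 counts in WT and 798 and 754 in the libraries labelled cKO. The groups did not overlap (log2 fold change 0.32, SE 0.13, unadjusted P = 0.0397, FDR 0.446), and the value was 0.27 or more with any library left out. *Lss*, lanosterol synthase, lay above WT in both libraries by a smaller amount (0.18, SE 0.15, FDR 0.711).

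Among the 8 genes that act on the sterol ring, *Hsd17b7*, a 3-ketosteroid reductase, had the highest fold change of the 27 genes. It was counted at 76 and 104 in WT and at 131 and 156 in the libraries labelled cKO, with no overlap. The log2 fold change was 0.61 (SE 0.25, unadjusted P = 0.0396, FDR 0.446), and it ran from 0.44 to 0.79 with each library left out in turn. *Cyp51*, lanosterol demethylase (0.07), and *Dhcr7*, which makes cholesterol in the last step of one branch (0.13), were above WT in both libraries by little. *Tm7sf2* (0.15), *Msmo1* (0.15) and *Sc5d* (0.05) had overlapping groups, as did *Nsdhl* (−0.05) and *Ebp* (−0.02), and FDRs of all 8 genes were 0.446 or more. *Tm7sf2* held between 28 and 40 counts in a library and had the widest interval of the enzymes, from −0.71 to 1.01.

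**Figure D3:**
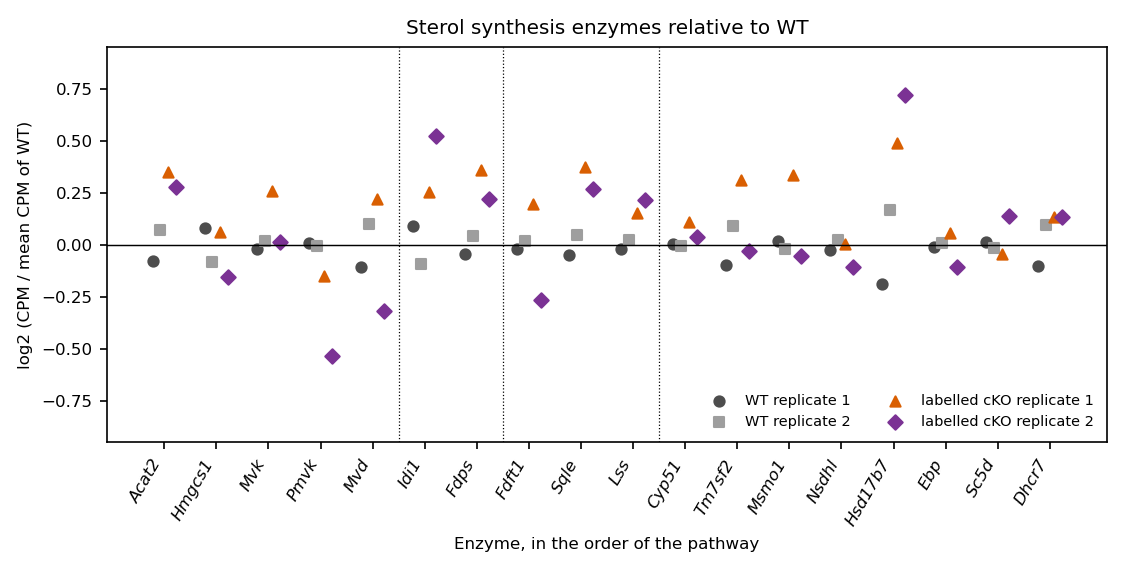
Level of each of the 18 enzymes in each library, as the log2 ratio to the WT mean, in the order of the pathway, with dotted lines between the mevalonate, isoprenoid, squalene and sterol ring steps. Both libraries labelled cKO lie above WT at *Idi1*, *Fdps*, *Sqle* and *Hsd17b7*, and they part at *Mvd*, *Fdft1*, *Tm7sf2* and *Msmo1*, where replicate 2 is the lower one.

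Among the genes of SREBP control, 2 of 6 stood higher and 4 lower, with a median log2 fold change of −0.08. *Srebf2* had 5286 and 5477 counts in WT and 5229 and 5377 in the libraries labelled cKO. After scaling for library size both of the latter were just below WT, at a log2 fold change of −0.09 (SE 0.12, 95% interval −0.36 to 0.18). *Srebf1*, whose products act more on fatty acid genes, had 577 and 734 counts in WT and 727 and 770 in the libraries labelled cKO, and the groups overlapped (log2 fold change 0.13, 95% interval −0.20 to 0.45). For *Srebf1* the value was 0.0059 without WT replicate 1 and 0.25 without WT replicate 2. Within each library, by counts and not per length, *Srebf2* held from 6.98 to 9.16 times the counts of *Srebf1*, the highest ratio being that of WT replicate 1, and per length the ratio was 6.98 in WT.

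*Scap*, the escort of the SREBPs, was slightly below WT in both libraries (log2 fold change −0.09, SE 0.12, FDR 0.816). *Insig1*, itself a target of SREBPs, was counted at 564 and 555 in WT and at 590 and 533 in the libraries labelled cKO, with overlapping groups (log2 fold change −0.06, SE 0.14, FDR 0.907). *Insig2*, its paralogue, had 280 and 271 counts in WT and 254 and 257 in the libraries labelled cKO, with no overlap after scaling (log2 fold change −0.18, SE 0.17, FDR 0.736). *Insig1* held between 2.01 and 2.32 times the counts of *Insig2* in every library, and per length the ratio was 1.99 in WT. *Stard4*, a sterol carrier and a target of SREBP-2, was higher in both libraries labelled cKO, with 609 and 670 counts in WT against 689 and 879. The log2 ratio was 0.22 (SE 0.15, FDR 0.634), but 0.04 without replicate 2 of that label.

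In the LXR and efflux group, *Nr1h2* was the receptor gene with the higher level per length, as given above. It had 1490 and 1780 counts in WT, 1757 in the library labelled cKO replicate 1 and 1322 in replicate 2, and the groups overlapped (log2 fold change −0.15, SE 0.16, FDR 0.777). The value was 0.04 without replicate 2 and −0.38 without replicate 1. *Nr1h3* was counted at 4, 6, 10 and 7 in the same order of libraries, where the exact 95% Poisson interval of the highest count runs from 4.80 to 18.4. Its ratio to WT, on summed counts, was 1.62 (95% counting interval 0.701 to 3.96), so no difference was detectable at this depth.

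The efflux transporters pointed in different directions. *Abcg1*, which passes cholesterol to mature lipoproteins, had 1778 and 2015 counts in WT and 1662 and 1637 in the libraries labelled cKO. Both were below both WT values after scaling, at 129 ± 5.43 CPM in WT and 107 ± 2.28 CPM in the other group (SD, n = 2). The log2 fold change was −0.27 (SE 0.11, unadjusted P = 0.0470, FDR 0.462), and leaving out single libraries gave values from −0.31 to −0.24. *Abca1*, which loads lipid-poor apolipoprotein, had only 24 and 20 counts in WT and 28 and 34 in the libraries labelled cKO (log2 fold change 0.42, SE 0.40, 95% interval −0.52 to 1.36). In WT the level of *Abcg1* was 151 times that of *Abca1* per length.

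Counts were also read for single transcripts. Of the 17 tested genes among the 28 with counts on 2 or more transcripts, 5 (29.4%) had one whose mean share of the gene's counts lay over 20 percentage points apart between the groups, against 23.6% of 8656 such genes in the whole table. The 5 were *Hsd17b7*, *Scap*, *Nr1h2*, *Mvk* and *Dhcr7*, and *Nr1h3*, which was not tested, also met this limit. In *Nr1h2*, transcript NM_001285518.2 had 411 and 429 counts in WT, 25.8% of the gene, and was at 0 in both libraries labelled cKO, for which the upper limit is 3 counts in each. In the same gene NM_001285519.2 had 171 and 286 counts in WT and 685 and 529 in the others, and NM_001416185.1 had 0 and 174 in WT and 471 and 361 in the others. Within the sum of *Nr1h2*, some transcripts were thus lower and some higher. In *Scap*, the share of NM_001001144.3 was 84.1% in WT and 58.3% in the libraries labelled cKO, and that of NM_001103162.2 was 13.8% and 31.5%. In *Mvk*, XM_006530185.5 was at 0 in both WT libraries and at 37 and 19 in the others. In *Hsd17b7*, NM_010476.3 held 11 counts in WT replicate 1 but 78 in WT replicate 2, against 90 and 119, and in *Dhcr7* NM_001412321.1 held 86 and 0 in WT against 151 and 80. In these last genes the WT libraries differed from each other as well. The transcripts of *Nr1h3* held at most 10 counts each. No transcript of the 28 genes passed FDR < 0.05 over the 29581 transcripts tested, the lowest being 0.558. Such an on-off pattern, 20 counts or more in each library of one group and 0 in the other, was met by 436 transcripts of the whole table that were on in WT and by 509 that were on in the libraries labelled cKO. How reads shared between transcripts of a gene were assigned bears on these values and was not tested.

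**Figure D4:**
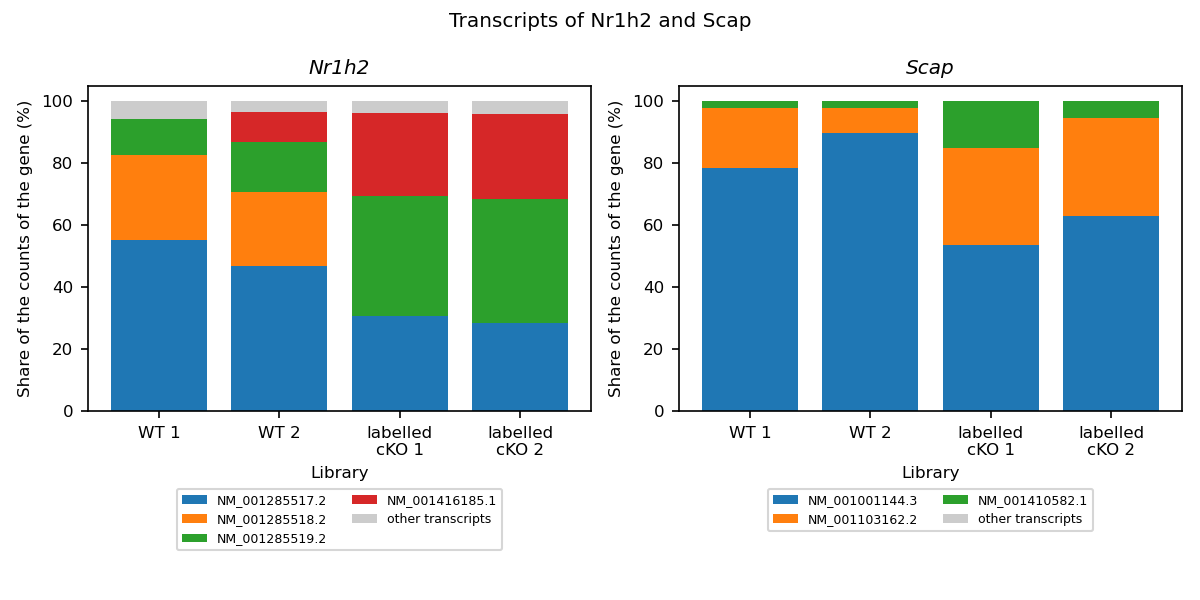
Share of the counts of *Nr1h2* and of *Scap* that fell on each transcript in each library, in percent, with transcripts under 10% in every library pooled in grey. The transcript NM_001285518.2 of *Nr1h2* is seen in the WT libraries and absent from the libraries labelled cKO, and NM_001001144.3 of *Scap*, at the base of each bar, is a smaller share in both of the latter.

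The genes around the pathway were read from lists of neighbours. In the isoprenoid branch, which turns farnesyl diphosphate into dolichol, ubiquinone side chains and prenyl anchors, 8 of 13 were higher and no FDR was below 0.05. Their median log2 fold change was 0.07, and it was 0.029 without replicate 2 of the label cKO and −0.0021 without replicate 1. Without WT replicate 1 it was 0.086, and without WT replicate 2 it was −0.0037. *Pdss1*, a subunit of the enzyme for the ubiquinone chain, had the smallest P value of that list, with 39 and 43 counts in WT against 54 and 130 (log2 fold change 1.09, FDR 0.435, and 0.33 without replicate 2 of the label cKO). Among 7 genes for SREBP cleavage and sterol-dependent degradation, 2 were higher and 5 lower (median −0.17, and −0.084 without replicate 2 of the label cKO), and none passed. The site-2 protease gene *Mbtps2* stood at −0.33 (FDR 0.557), at −0.15 without replicate 1 of the label cKO and at −0.54 without replicate 2, and the ligase gene *Rnf145* at −0.24 (FDR 0.524).

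Fatty acid synthesis is the branch that SREBP-1 serves. Of 11 genes tested, 8 were higher, 4 at an unadjusted P value below 0.05 (6.95% of all genes) and none at FDR < 0.05. Their median log2 fold change was 0.35, and it came to 0.10 without WT replicate 1 or without replicate 2 of the label cKO. It came to 0.11 without replicate 1 of that label and to 0.36 without WT replicate 2. *Fasn*, fatty acid synthase, had 2210 and 2361 counts in WT and 3105 and 4490 in the libraries labelled cKO (log2 fold change 0.66, SE 0.17, FDR 0.307). *Scd2*, a stearoyl-CoA desaturase, had 1439 and 1461 against 2020 and 3945 (0.97, SE 0.27, FDR 0.327), and *Fads2*, the Δ6 desaturase, 142 and 154 against 228 and 446 (1.11, SE 0.30, FDR 0.312). *Elovl6*, a fatty acid elongase, was at 0.39 (SE 0.14, FDR 0.389). In all 4 genes the library labelled cKO replicate 2 was the highest. Without it the log2 fold changes of *Fasn*, *Scd2*, *Fads2* and *Elovl6* were 0.38, 0.41, 0.56 and 0.31. The summed level of this list was 1.45 times the WT mean in replicate 2 and 1.12 times in replicate 1, whereas that of the sterol enzymes was higher in replicate 1. The difference between the lists was not tested.

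Among 11 tested genes of sterol uptake, storage and oxysterol metabolism, 4 were higher and 7 lower (median −0.22, and −0.072 without replicate 2 of the label cKO), with 1 higher and 3 lower at an unadjusted P value below 0.05, against 6.95% and 3.77% of all genes. *Stard3*, an endosomal sterol carrier, had 741 and 775 counts in WT and 581 and 455 in the libraries labelled cKO (−0.62 in log2, SE 0.16, FDR 0.307). *Cyp27a1*, which makes 27-hydroxycholesterol, an LXR ligand, had 3278 and 3809 counts in WT and 3092 and 2301 in the others (−0.46, SE 0.16, FDR 0.380, and −0.26 without replicate 2 of the label cKO or −0.70 without replicate 1). *Npc2*, which hands cholesterol out of the lysosome, stood at −0.58 (FDR 0.447) and at −0.25 without replicate 2 or −1.02 without replicate 1. *Gpr183*, the receptor for 7α,25-dihydroxycholesterol that guides dendritic cells in the spleen, was at 0.62 (SE 0.21, FDR 0.364) and at 0.36 without replicate 2. *Ch25h*, cholesterol 25-hydroxylase, had at most 1 count in a library and was not tested. Of 8 partners and targets of the LXRs tested, 4 were higher and 4 lower, with no FDR below 0.05. Their median was −0.02, and it was 0.10 without replicate 1 of the label cKO, −0.083 without replicate 2, 0.046 without WT replicate 1 and −0.052 without WT replicate 2. The retinoid X receptor gene *Rxra* was at −0.33 (FDR 0.490) and *Mylip*, an LXR target, at 0.30 (FDR 0.564), and without replicate 2 of the label cKO they were at −0.19 and 0.15. *Rxra* was at −0.50 without replicate 1.

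**Figure D5:**
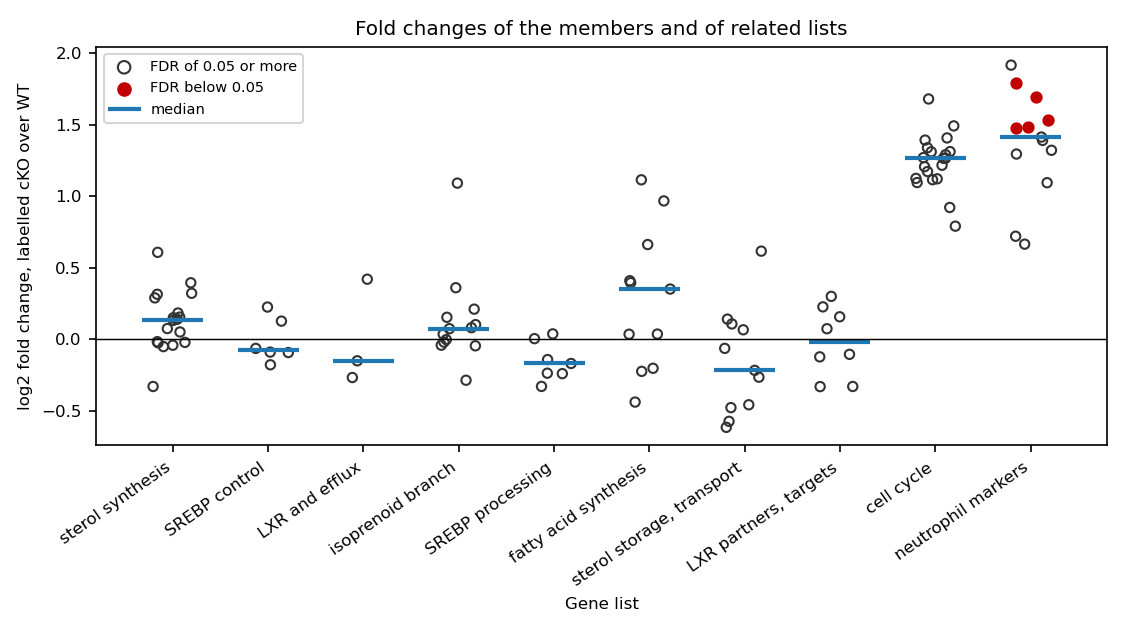
Log2 fold change of each tested gene, libraries labelled cKO over WT, for the 3 groups of members, 5 lists of related genes, cell cycle genes and neutrophil markers, with the median as a bar and genes at FDR < 0.05 filled. The sterol synthesis, SREBP and LXR genes lie near 0 (medians 0.14, −0.08 and −0.15), fatty acid synthesis genes reach 1.11, and filled points occur among the neutrophil markers.

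The replicates set the limit of these comparisons. Over the 27 genes the median gap between the WT libraries was 0.09 on the log2 scale and that between the libraries labelled cKO 0.17, against 0.14 and 0.24 over all genes. The gap was wider between the libraries labelled cKO for 19 of the 27, and 18 of the 27 were lower in replicate 2 of that label than in replicate 1. SEs of the log2 fold changes ran from 0.11 to 0.40.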

How the data were processed

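RNA of CD24+ splenic EPs was sequenced from CORALL RNA-seq V2 libraries. The authors deposited, for each of the 4 libraries, whole-number counts on 137259 RefSeq transcript rows, without normalization. The submitters' processing notes name fastp, STAR, Salmon, GATK and GRCm39 without roles or versions, so the counts may be rounded estimates. The rule for assigning reads shared by transcripts is not given in the sources used here.

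Counts were summed per gene symbol. The 12393 genes that passed filterByExpr were fitted in edgeR 4.0.16 (R 4.3.3) with TMM factors and the quasi-likelihood F test, and P values were adjusted over all of them by Benjamini–Hochberg. Intervals are 95% and use the moderated degrees of freedom. The common dispersion gave a biological coefficient of variation of 15.2%. DESeq2 1.42.0 and limma 3.58.1 served as alternatives. With 2 libraries against 2, an exact two-sided permutation test cannot go below P = 0.333. Nothing says that the libraries of a group came from separate mice, so P values measure the spread between libraries, which may be technical. Every pair of libraries differed beyond sampling noise, the lowest chi-square over its degrees of freedom being 11.8. Counting intervals and floors of 3 counts cover counting error only.

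The members and gene lists were chosen with earlier results of these data known. Values per library were printed for genes with an unadjusted P value below 0.05, for paralogue pairs and for efflux genes, and the other genes with counts shown were picked after their values were seen. From each neighbouring list, up to 4 genes with the smallest P values were named, and *Ch25h* was added. Coordinates come from the RefSeq promoter table and its own build, not from GRCm39. Fits were tested on simulated data, and alternatives were other normalizations, tests, filters, features, a replicate block and leaving out each library.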

Additional observations from a re-analysis of the deposited data

How the results depend on the processing

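With all libraries kept, the number of the tested genes among the 28 at FDR < 0.05 was 0 under every normalization, test and filter. It was also 0 with the replicate block and with each transcript taken by itself. The number at an unadjusted P value below 0.05 was 5 in the reported fit, 1 with the DESeq2 Wald test, 2 with the edgeR likelihood ratio test, 3 with no filter on low counts, and from 0 to 6 with a library left out. The number of all genes at FDR < 0.05 was 13, against 137 with the DESeq2 Wald test, 234 with the likelihood ratio test, 0 with each transcript as its own feature (2018 transcripts at an unadjusted P value below 0.05), and from 1 to 2628 with a library left out. Same-numbered libraries did not deviate together over all genes taken at once (correlation −0.031). The labels give them only a number in common, and an effect shared by part of the genes was not tested. With the replicate block, 2 of the 28 genes had an unadjusted P value below 0.05, as did 1437 of all 12393 genes. In that fit 504 of all genes had FDR < 0.05. The cause of these differences was not tested.

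The median log2 fold change ran from −0.032 to 0.10 over the 27 genes and from 0.024 to 0.20 over the enzymes as libraries were left out, the lowest values being those without the library labelled cKO replicate 1. Under the 8 alternatives that kept all libraries and the gene sums, all 216 values of single genes kept their sign and their side of the threshold. As libraries were left out, 11 of 108 changed sign. The ranges were −0.15 to 0.053 for *Hmgcs1*, −0.32 to 0.21 for *Mvd*, −0.27 to 0.19 for *Fdft1*, −0.032 to 0.30 for *Tm7sf2*, −0.054 to 0.33 for *Msmo1*, −0.11 to 0.052 for *Ebp*, −0.052 to 0.14 for *Sc5d*, −0.15 to 0.010 for *Insig1* and −0.38 to 0.042 for *Nr1h2*. With this depth, genes of few counts such as *Nr1h3*, *Abca1* and *Tm7sf2* could show only large differences.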
